A study of Mus musculus with 12 samples.

Results

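The genes described here are 40 members of the machinery that copies DNA and of the enzymes that supply its building blocks: the Mcm helicase and its loading factors, the replicative polymerases with primase, clamp and clamp loader, the proteins that finish the lagging strand, 4 nucleotide synthesis enzymes, 4 regulators of entry into S phase and 4 factors of chromatin assembly. They were set as a list of gene names, chosen with earlier results of these data known. A probe belonged to a member when the scanner file named that gene or a synonym of it, and where a gene had several probes the one with the highest mean signal over the arrays was used. All 40 members were measured and tested, of 22978 genes tested in all. They had 48 probes, 8 members had 2, and 38 members were well above background on all 12 arrays.

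RNA came from bone marrow cells of mice, grown for 10 days with the growth factor GM-CSF at 20 ng/ml, a culture the labels call bone marrow derived macrophages. Marrow of 2 wildtype mice and 2 mice labelled Commd1 knockout was used, and the cells of each mouse were split into 3 parts: 1 left untreated, 1 given lipopolysaccharide (LPS, a bacterial cell wall component that activates macrophages) at 10 ng/mL for 3 h, and 1 given the same dose for 24 h. Each of the 6 groups therefore holds 2 samples, 1 per mouse, all grown in GM-CSF, and each sample was put on 1 single-colour array. The labels used here give neither the strain, sex or age of the mice nor how the gene was deleted. Mice are numbered 1 and 2 within each genotype.

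DNA replication begins when the Mcm helicase is loaded at origins by Cdc6 and Cdt1, a step that geminin (Gmnn) blocks. Once the cell commits to S phase, the kinase bound by cyclin E and other kinases activate the helicase. Polymerases copy both strands behind it while thymidylate synthase, ribonucleotide reductase and thymidine kinase supply deoxynucleotides. Many of these genes are transcribed together at the G1/S boundary under E2F factors. Bone marrow precursors divide while they become macrophages, and LPS is known to slow the division of growth-factor-driven macrophages.

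Levels are log2 processed intensities relative to the 75th percentile of the same array, so 0 is that percentile, and a difference of 1 between groups is a doubling. A level describes 1 probe and is not compared between genes. Changes come from limma over all 12 arrays and are given as log2 difference ± its standard error, and a gene is said to rise or fall only at an adjusted p under 0.05 (Benjamini-Hochberg over all genes tested). Commd1 lay between 2.70 and 2.89 on the wildtype arrays and between -0.50 and 0.07 on the knockout arrays, as labelled. The arrays lay on 3 slides of 4, 1 slide for each time, so a change with LPS and a change of slide cannot be told apart. All 10 macrophage markers listed (among them Adgre1, Csf1r and Cd68) were well above background on every array. Of 10 dendritic cell markers, 5 to 7 were so on both arrays of a group. Flt3, Itgax, Zbtb46, Batf3 and Siglech were so in every group, Ccr7, Dpp4 and Clec9a in some, and Cd209a and Xcr1 in none. Of 9 neutrophil and granulocyte precursor markers measured, 7 or 8 were well above background on both arrays of each group, and of 8 stromal markers 7 or 8. In bulk RNA, fewer cells expressing a gene and less RNA per cell cannot be told apart.

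**Figure D1:**
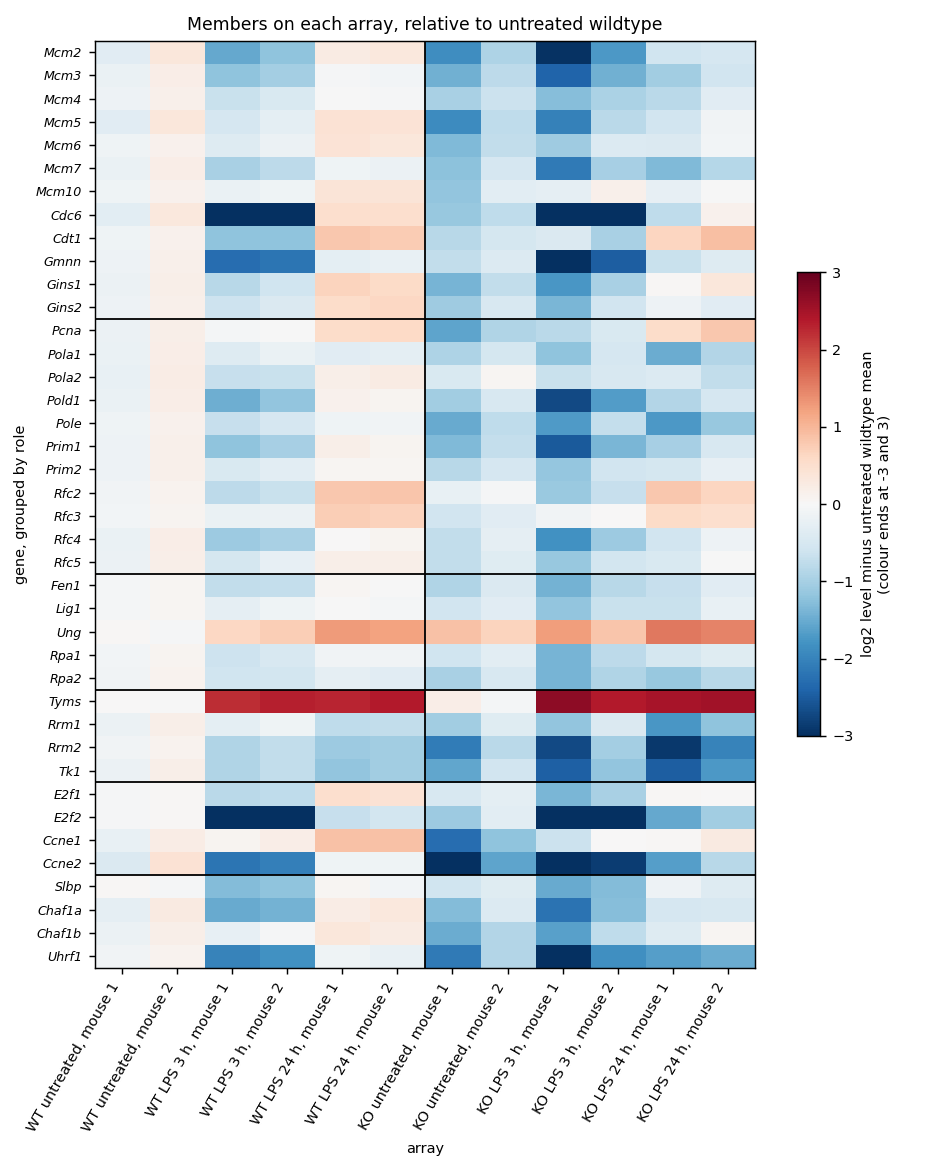
Each row is 1 of the 40 members, grouped by role with lines between roles, and each column is 1 array. Colour gives the log2 level minus the mean of the 2 untreated wildtype arrays (blue lower, red higher). Cdc6, E2f2 and Gmnn are dark blue at 3 h in every mouse, Tyms is red on every LPS array, and in knockout cells the untreated and 3 h columns of mouse 1 are bluer than those of mouse 2 over most rows.

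After 3 h of LPS, 19 of the 40 members fell in wildtype cells and 2 rose, where 23.4% of all genes tested fell and 23.2% rose. The median over the members was -0.70, against 0.03 over all genes, and 37 of the 40 lay below their untreated level. With the 3 samples of a mouse fitted as a block, 27 fell and 2 rose, where 47.9% of all genes were called. The number called, 21, was 9 without untreated wildtype mouse 2, 10 without wildtype mouse 1 at 3 h and 13 without wildtype mouse 2 at 3 h. The falls were largest in E2f2, Cdc6 and Gmnn. By role, 5 of the 12 licensing and helicase members fell (median -0.80). In the polymerase group 5 of 11 fell (median -0.60). In the same cells the levels of 8 progenitor markers were summed (linear scale, in units of the array's 75th percentile). The sum was 0.986 to 1.08 in the 2 untreated wildtype samples and 0.358 to 0.383 at 3 h. At each time 6 of the 8 were detected on both arrays, with Mecom among them only untreated and Spink2 only at 3 h. Gata2 was at background at both times. The part of these markers in the result was not tested.

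Cdc6, the ATPase that helps load the helicase onto origins, stood at -2.32 and -1.68 in the untreated wildtype samples, at -5.39 and -4.99 after 3 h and at -1.49 and -1.50 after 24 h. Both 3 h values lie far below all the others, and the groups do not overlap. The fall at 3 h was 9.12-fold (-3.19 ± 0.33, adjusted p = 8.16e-05). A second Cdc6 probe differed by -3.69 at 3 h, but at 24 h against untreated the chosen probe stood at 0.51 and the second at -0.44. Gmnn, the inhibitor of relicensing, read 2.29 and 2.61 untreated, 0.16 and 0.27 at 3 h and 2.16 and 2.22 at 24 h. Its change of -2.23 ± 0.31 (adjusted p = 0.000504) had thus gone by 24 h, when the difference from untreated was -0.26 ± 0.31. Cdt1, the licensing factor that geminin binds, read 3.69 and 3.93, then 2.61 and 2.61, then 4.61 and 4.56. It fell by 1.20 on the log2 scale at 3 h and passed its untreated level at 24 h by 0.78 ± 0.19 (adjusted p = 0.00889), so that its 3 groups do not overlap.

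Of the helicase subunits, Mcm2 (-1.36 ± 0.44) and Mcm3 (-1.11 ± 0.34) fell at 3 h. Mcm2 read 0.80 and 1.48 untreated and -0.38 and -0.06 at 3 h, a gap close to the distance between the untreated mice. The other subunits were lower without passing the test, from -0.88 for Mcm7 to -0.28 for Mcm6, with Mcm4 at -0.56 (adjusted p = 0.0503). Mcm10, which helps activate the loaded helicase, changed by -0.16, and the GINS subunits Gins1 and Gins2, which join the helicase when it starts to unwind, by -0.72 and -0.52. All 12 licensing and helicase members were thus lower at 3 h, and 5 of them passed the test, where 23.4% of all genes fell.

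Among the 11 members of the polymerase group, 5 fell, where 23.4% of all genes fell. Pold1, the catalytic subunit of polymerase delta, read 2.05 and 2.44 untreated, 0.79 and 1.05 at 3 h, and 2.37 and 2.33 at 24 h. Its fall was 1.32 on the log2 scale, with a standard error of 0.33. The primase subunit Prim1 (-1.09), the polymerase alpha subunit Pola2 (-0.68) and the clamp loader subunits Rfc4 (-1.03) and Rfc2 (-0.73) fell too. Pcna, the sliding clamp itself, did not follow: it read 5.42 and 5.76 untreated and 5.53 and 5.57 at 3 h, a difference of -0.04 ± 0.23. Pola1, Pole, Prim2, Rfc3 and Rfc5 lay between -0.60 and -0.18, none called. In the lagging strand group, the flap nuclease Fen1 (-0.72) and the single-strand binding subunits Rpa1 (-0.54) and Rpa2 (-0.58) fell, and the ligase Lig1 (-0.20) did not pass the test.

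Of the regulators, E2f2, an activating E2F, had the deepest fall of all members. It read 1.08 and 1.14 untreated, -2.18 and -2.07 at 3 h, and 0.42 and 0.55 at 24 h, and the fall at 3 h was 9.38-fold (-3.23 ± 0.37, adjusted p = 0.000151). E2f1, the other activating E2F in the list, fell by 0.78 and at 24 h stood 0.46 ± 0.13 above its untreated level. The 2 E cyclins differed: Ccne2 fell by 2.13, from -3.58 and -2.73 to -5.35 and -5.21, whereas Ccne1 read 1.21 and 1.67 untreated and 1.52 and 1.64 at 3 h, a difference of 0.14 ± 0.35. Ccne2 was well above background on 11 of 12 arrays, and its standard error of 0.59 is the widest of the 40 members in this comparison.

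The chromatin group fell except for 1 member. Uhrf1, which carries DNA methylation over to the new strand, read 2.04 and 2.26 untreated, 0.16 and 0.33 at 3 h, and 2.02 and 1.93 at 24 h, a fall of 1.90 on the log2 scale (SE 0.47). Slbp, which binds the stem-loop of histone mRNA, fell by 1.26 ± 0.13 and had the smallest adjusted p of the falling members (7e-05). Chaf1a, the large subunit of the histone chaperone CAF-1, fell by 1.47, while its partner subunit Chaf1b changed by -0.14 ± 0.31.

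**Figure D2:**
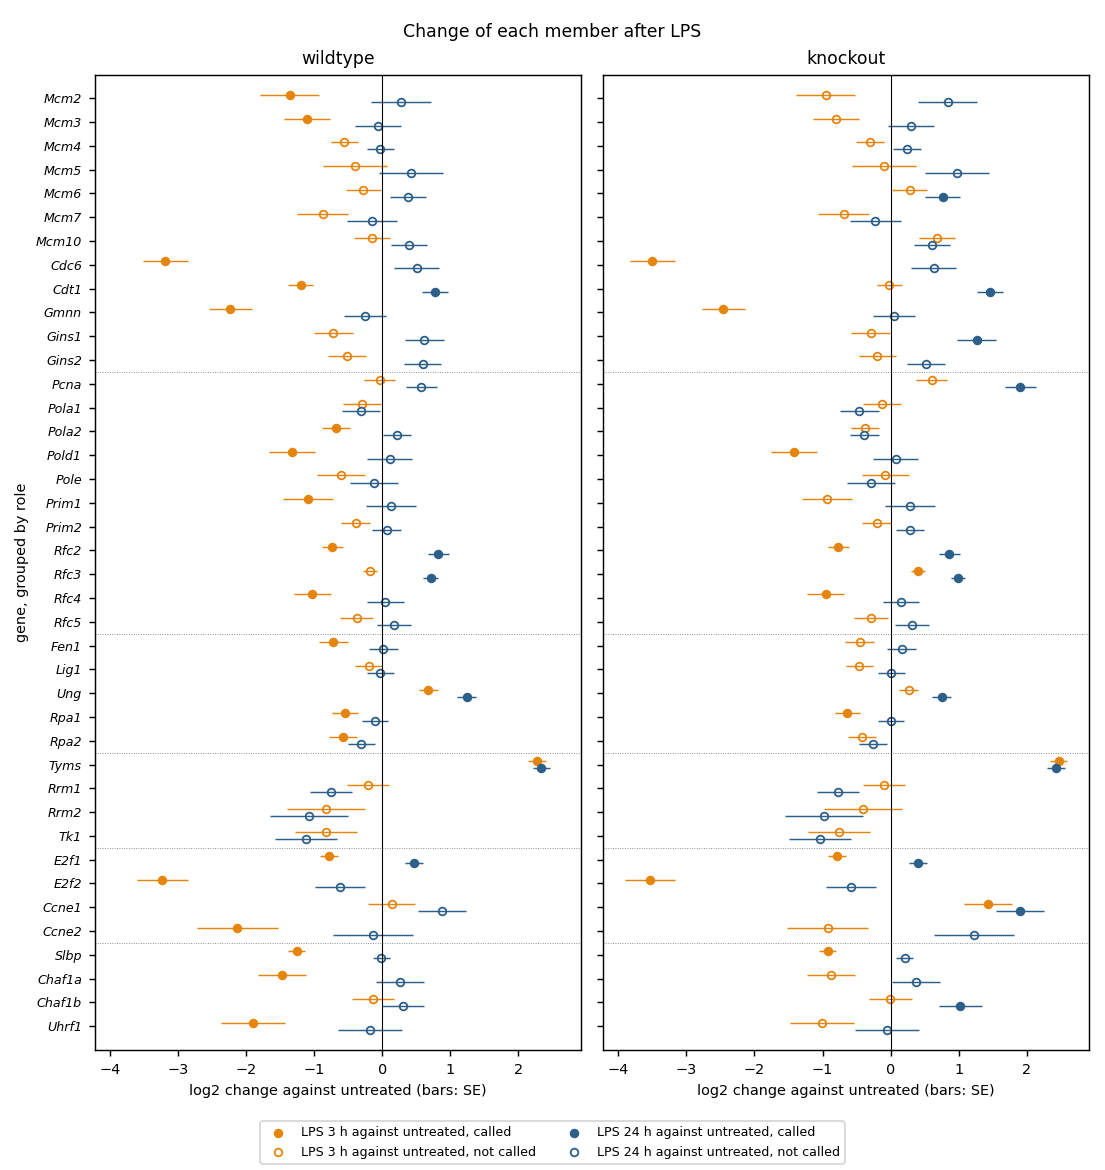
Log2 change of each member at 3 h (orange) and 24 h (blue) of LPS against untreated, in wildtype (left) and knockout cells (right), with standard errors from limma. Filled points passed the adjusted threshold of 0.05. In wildtype cells 19 orange points are filled to the left of 0 and 2 to its right, and no blue point is filled to the left in either panel.

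The nucleotide synthesis enzymes moved apart from one another. Tyms, thymidylate synthase, read -3.04 and -3.07 in untreated wildtype cells, -0.84 and -0.73 at 3 h, and -0.77 and -0.67 at 24 h. The untreated samples are low and all LPS samples high, with no overlap. The rise was 4.83-fold at 3 h (2.27 ± 0.13, adjusted p = 2.47e-06) and 5.05-fold at 24 h (2.34 ± 0.13, adjusted p = 2.75e-06), and the 24 h and 3 h samples differed by 0.06 ± 0.13. Rrm2, the regulated subunit of ribonucleotide reductase, read 3.63 and 3.84, then 2.83 and 3.00, then 2.64 and 2.69. The untreated samples are the highest, but the change of -1.07 at 24 h missed the threshold (adjusted p = 0.156) with a standard error, pooled over all groups, of 0.57. Rrm1, the large subunit, was at -0.76 (adjusted p = 0.0698) and Tk1, the salvage enzyme thymidine kinase, at -1.12 (adjusted p = 0.0717) at 24 h. Fitted with the mouse as a block, Rrm1, Rrm2 and Tk1 all passed at 24 h in both genotypes. Tyms was measured by 1 probe, whose place relative to the exons was not checked here.

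The only other member called higher at 3 h was Ung, the glycosylase that removes uracil from DNA, and its single probe carries a repeat. The probe ends in a run of TG repeats, shown here as its 30 bases at the 3′ end, all of them repeat:
Ung probe: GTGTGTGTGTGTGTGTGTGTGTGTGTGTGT
Its signal lies at percentile 99.7 of the genes tested. It read 6.41 and 6.32 untreated, 6.99 and 7.09 at 3 h and 7.64 and 7.56 at 24 h in wildtype cells. A TG run of at least this length occurs in the probes of 11 other genes tested, and they moved likewise: 10 of the 11 rose at 3 h, by a median of 0.42, and 11 of 11 at 24 h, by a median of 0.87. Ung itself changed by 0.68 ± 0.14 and 1.24 ± 0.14. What the probe bound was not tested.

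By 24 h many members had risen from their 3 h level, while genes of mitosis had fallen further. Against 3 h, 21 of the 40 rose in wildtype cells and 0 fell, where 25.7% of all genes rose and 26.9% fell, and the median was 0.78 (all genes -0.04). With the mouse as a block 33 rose and 1 fell, where 54.1% of all genes were called. Cdc6 rose by 3.69, E2f2 by 2.61, Ccne2 by 1.99, Cdt1 by 1.98 and Gmnn by 1.98 on the log2 scale. Leaving out the 3 h sample of wildtype mouse 1, 12 rose.

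Against untreated, 6 members were called higher at 24 h in wildtype cells and 0 lower (limma, where 23.6% of all genes rose and 26.4% fell), and 10 of the 40 had an unadjusted p under 0.05, against 56.3% of all genes. The 6 were Tyms, Ung, Rfc2, Cdt1, Rfc3 and E2f1, and the median over all members was 0.12. With the mouse as a block the count was 10 higher and 5 lower (Rrm1, Rrm2, Tk1, E2f2 and Rpa2), where 51.4% of all genes were called. Rfc2 and Rfc3 are subunits of the complex that opens Pcna rings and loads them. Rfc2 read 1.41 and 1.64 untreated, 0.73 and 0.85 at 3 h, and 2.34 and 2.35 at 24 h, a rise of 0.82 ± 0.15 above its starting level after a fall. Rfc3 read -0.95 and -0.76, then -1.05 and -1.02, then -0.12 and -0.17, and rose by 0.71 ± 0.11. The remaining clamp loader members Rfc4 and Rfc5 stood at 0.05 and 0.17.

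A list of 20 mitotic genes, whose products assemble the spindle and separate chromosomes, took another course. At 3 h 6 of the 20 fell in wildtype cells (Bub1b by 1.60, Cdc20 by 1.16 and Kif20a by 1.09), where 23.4% of all genes fell. The median was -0.48, near that of the members. At 24 h 19 of the 20 fell and 1 rose, where 26.4% of all genes fell. Their median was -2.26, against 0.12 for the 40 members. Cdc20, the activator of the anaphase-promoting complex, fell by 4.14 and Kif20a, a motor of the central spindle, by 3.73, while Tpx2 rose by 0.73. In knockout cells 18 of the 20 fell at 24 h (median -2.92), where 31.5% of all genes fell. The progenitor markers did not recover with the members either: their summed level was 0.356 to 0.363 at 24 h in wildtype cells, with 5 of 8 detected and Gata2 and Myb at background.

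**Figure D3:**
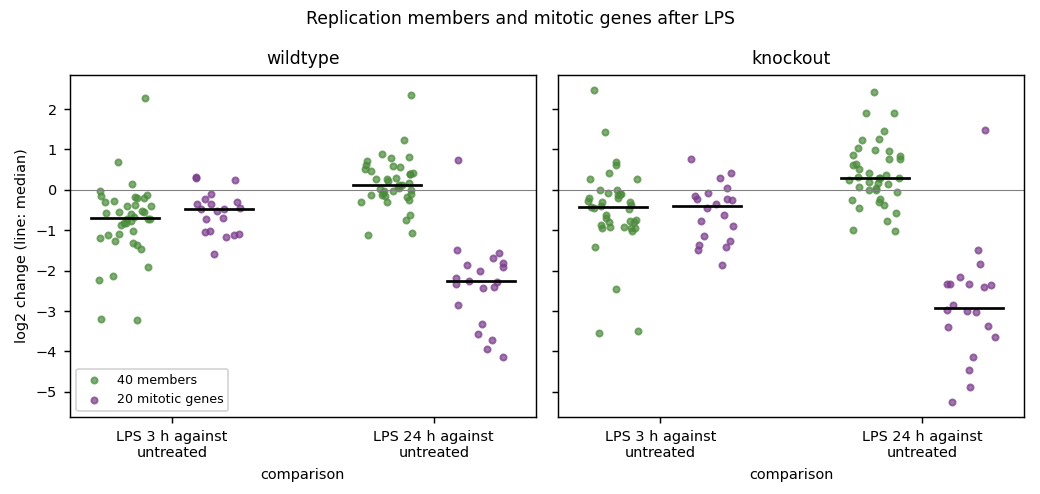
Each point is 1 gene, and its height is the log2 change against untreated at 3 h and 24 h of LPS, for the 40 members (green) and 20 mitotic genes (purple). Black lines are medians. At 3 h the sets overlap in both genotypes, with wildtype medians of -0.70 and -0.48, and at 24 h the mitotic genes lie mostly below -1 while the members centre near 0.

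In knockout cells the course was similar in direction. After 3 h, 9 of the 40 members fell and 3 rose (Tyms, Ccne1 and Rfc3), where 25.7% of all genes fell and 26.4% rose. The falling share was thus near that of all genes and the rising share below it. The median was -0.41, against 0.06 over all genes. The 9 (Cdc6, E2f2, Gmnn, Pold1, Rfc4, Slbp, E2f1, Rfc2 and Rpa1) were all among the 19 that fell in wildtype cells, which makes them 47.4% of that list, and all 19 were below their untreated level in knockout cells too. With the mouse as a block 21 fell and 5 rose, where 54.0% of all genes were called. Cdc6 read -3.14 and -2.75 untreated, -6.66 and -6.24 at 3 h and -2.76 and -1.87 at 24 h, a fall of 11.3-fold at 3 h, where it was well above background on 1 of the 2 arrays. E2f2 read 0.01 and 0.78, then -3.70 and -2.57, then -0.44 and 0.07, a fall of 11.6-fold. Gmnn read 1.70 and 2.03, then -1.14 and -0.03, then 1.78 and 2.05, a fall of 5.49-fold. For these genes both mice fell and both came back, with mouse 1 the lower at every time.

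Pold1 read 1.19 and 1.76 untreated and -0.46 and 0.57 at 3 h (-1.42 ± 0.33), and Rfc4 read 1.21 and 1.68 untreated and 0.13 and 0.85 at 3 h (-0.95 ± 0.27). Each fell in both mice, and the groups do not overlap. Tyms rose as in wildtype cells, from -2.85 and -3.11 to -0.36 and -0.67 at 3 h and -0.58 and -0.53 at 24 h, 5.53-fold and 5.38-fold.

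Ccne1 and Pcna rose in knockout cells from a low untreated level. Ccne1 read -0.85 and 0.24 untreated, 0.79 and 1.45 at 3 h, and 1.48 and 1.71 at 24 h, rises of 1.43 ± 0.35 and 1.90 ± 0.35. Pcna read 4.01 and 4.70, then 4.78 and 5.13, then 6.13 and 6.39, and at 24 h it was 3.75-fold above untreated (1.91 ± 0.23, adjusted p = 0.000156). In wildtype cells the same comparison gave 0.57 ± 0.23 for Pcna (adjusted p = 0.0668). The difference between the genotypes' 24 h responses of Pcna, 1.33 ± 0.32, missed the threshold (adjusted p = 0.122) and passed it with the mouse as a block, the only member to do so.

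Against untreated, 11 members rose in knockout cells at 24 h and 0 fell (limma, where 26% of all genes rose and 31.5% fell), and 13 of the 40 had an unadjusted p under 0.05, against 62.2% of all genes. The share that rose was near that of all genes, and the median was 0.29, against -0.07 over all genes. The 11 include all 6 that rose in wildtype cells, and the other 5 were Pcna, Ccne1, Gins1, Chaf1b and Mcm6. Cdt1 read 2.98 and 3.28 untreated, 3.38 and 2.84 at 3 h and 4.45 and 4.72 at 24 h, and rose by 1.46 at 24 h. At 3 h mouse 1 lay above its untreated level and mouse 2 below it. Gins1 read -0.89 and -0.24 untreated and 0.55 and 0.85 at 24 h, a rise of 1.26. With the mouse as a block 16 rose and 5 fell, where 59.1% of all genes were called. Against 3 h, 22 rose and 0 fell (26.3% of all genes rose and 32.6% fell), with Cdc6 at 4.13, E2f2 at 2.95, Gmnn at 2.50, Ccne2 at 2.15 and Mcm2 at 1.79, and without the 24 h sample of knockout mouse 2 the count was 13. Cdc6 and Ccne2 were each well above background on 1 of the 2 knockout arrays at 3 h. Of the 22, 18 also rose in wildtype cells (81.8% of the knockout list and 85.7% of the wildtype list).

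**Figure D4:**
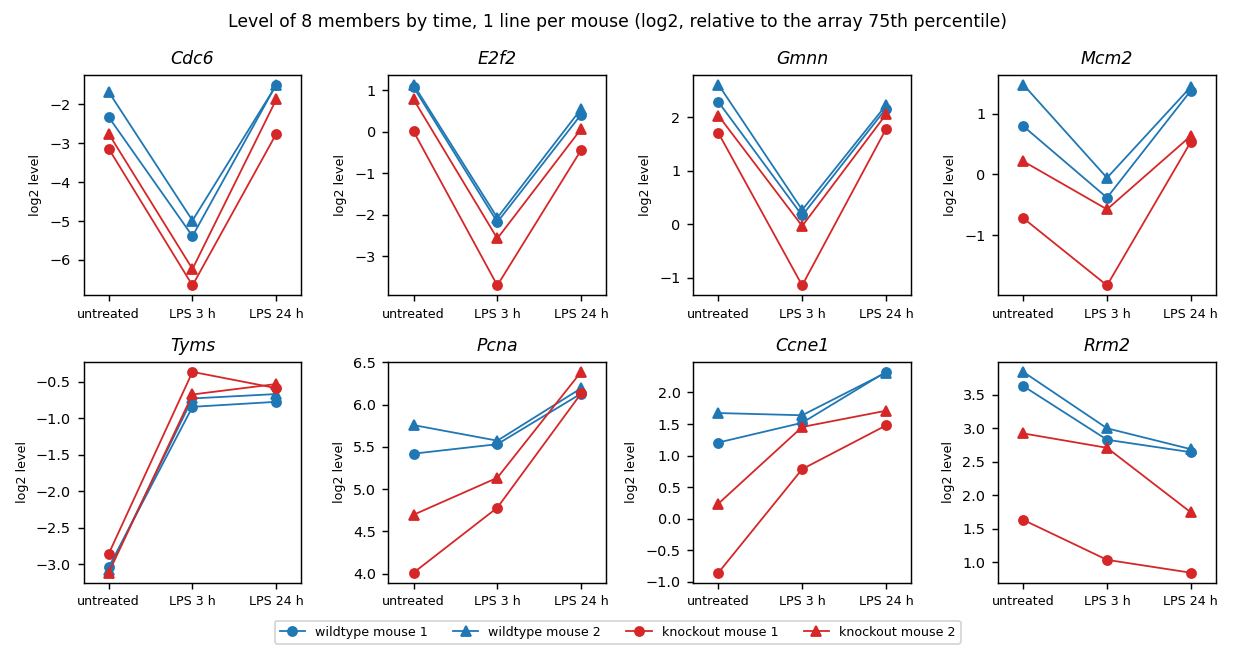
Log2 level of 8 members in untreated cells and after 3 h and 24 h of LPS, 1 line per mouse (wildtype blue, knockout red, circles mouse 1, triangles mouse 2). Cdc6, E2f2, Gmnn and Mcm2 dip at 3 h in all 4 mice, and Tyms steps up in all 4. The 2 knockout lines start below the wildtype lines for every gene shown but Tyms.

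Untreated knockout cells had lower levels of nearly the whole list. Of the 40 members 38 were lower than in wildtype cells, by a median of 0.75 on the log2 scale (all genes 0.04 higher), and in 37 the 2 genotypes did not overlap, against 58.8% of all genes. Only 5 passed the test over all genes: 4 were lower (Ccne2, Ccne1, Pcna and Rfc3) and Ung was higher, where 3.07% of all genes were called lower and 3.76% higher. At an unadjusted p under 0.05 the count was 33 of 40, against 24.9% of all genes. Without either wildtype sample, or without knockout mouse 1, the count called was 0, and without knockout mouse 2 it was 10.

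Ccne1 read 1.21 and 1.67 in wildtype and -0.85 and 0.24 in knockout cells (-1.75 ± 0.35, adjusted p = 0.0287), and Ccne2 read -3.58 and -2.73 against -6.49 and -4.74 (-2.46 ± 0.59, adjusted p = 0.0471). The gap between the knockout mice was 1.76 for Ccne2, the largest within-group gap of any member in untreated cells. Pcna read 5.42 and 5.76 against 4.01 and 4.70 (-1.23 ± 0.23, adjusted p = 0.0237). Rfc3 read -0.95 and -0.76 against -1.42 and -1.19 (-0.45 ± 0.11, adjusted p = 0.0441). Ung read 6.41 and 6.32 against 7.25 and 7.03 (0.78 ± 0.14), and the 11 other genes with a TG run in the probe were higher by a median of 0.53, 4 of them called. Larger but more scattered differences stood in Uhrf1 (-1.51), Rrm2 (-1.46), Mcm2 (-1.39) and Mcm5 (-1.32), none called.

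The slope of log signal on the amount of spiked-in control RNA was 0.735 to 0.743 on the untreated and 3 h wildtype arrays, 0.794 to 0.799 on the knockout arrays beside them, 0.820 to 0.824 on the 24 h wildtype arrays and 0.842 to 0.869 on the 24 h knockout arrays. Genotype lay on fixed positions of every slide, so genotype and position cannot be told apart. The summed level of 8 B cell markers was 0.857 to 0.933 in untreated wildtype and 1.72 to 1.82 in untreated knockout cells, with 5 of 8 detected in each and Ebf1 and Igll1 at background in both. Progenitor markers summed to 1.01 to 1.10 in untreated knockout cells, with 5 of 8 detected and Gata2 and Spink2 at background. The part of these in the genotype difference was not tested.

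Under LPS most members again lay lower in knockout cells, and none passed the test. At 3 h 34 of the 40 were lower (median -0.57), and at 24 h 36 were (median -0.65). Limma called 0 at either time, where 1.07% of all genes were called higher and 0.618% lower at 3 h, and 0.718% and 1.67% at 24 h. At an unadjusted p under 0.05 the counts were 15 and 16 of 40, against 24.3% and 21.7% of all genes. The smallest adjusted p was 0.0771 at 3 h, for Cdc6, and 0.0828 at 24 h, for Pola2. Over the means of each mouse across its 3 samples, 38 of the 40 were lower in knockout mice and 0 were called, as in all genes (0% called), with 31 of 40 at an unadjusted p under 0.05, against 24.1% of all genes. For the difference between the genotypes' LPS responses limma called 0 members at either time, and 0.0348% of all genes at 3 h and 0.326% at 24 h. At an unadjusted p under 0.05 there were 3 members for each response, a smaller share than the 12.4% and 14.6% of all genes. Cdt1 came closest at 3 h, with a difference of 1.18 ± 0.27 (adjusted p = 0.137): it fell in wildtype and changed by -0.02 in knockout cells.

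The arrays of the 2 knockout mice differed. Each mouse of either genotype kept the same position on all 3 slides, so mouse and array position cannot be told apart. In untreated cells 38 of the 40 members were lower in knockout mouse 1 than in knockout mouse 2, by a median of 0.58 (log2). At 3 h 37 were (0.69) and at 24 h 33 were (0.32). Of all genes 40.8%, 41.3% and 61.4% were lower in knockout mouse 1 at these times, and their median difference lay between -0.08 and 0.06. The 20 mitotic genes were lower in knockout mouse 1 in 20, 20 and 19 of 20, and in wildtype mouse 1 in 19 of 20 at each time. Wildtype mouse 1 was below wildtype mouse 2 in 37 of the 40 members untreated (median difference -0.32). At 3 h it was so in 40 of 40 (-0.15) and at 24 h in 16 of 40 (0.01). Of all genes 42.5%, 58.3% and 49.2% were lower in wildtype mouse 1 at these times. In Rrm2 the 2 knockout mice read 1.63 and 2.92 in untreated, 1.04 and 2.71 in 3 h and 0.84 and 1.75 in 24 h knockout cells. Without knockout mouse 2, the Rrm2 difference over mouse means was -1.94, against -1.29 with both knockout mice. That value rests on 1 knockout mouse that is assumed to vary like the others. Wildtype Rrm2 read 3.63 and 3.84 untreated, 2.83 and 3.00 at 3 h, and 2.64 and 2.69 at 24 h. Knockout mouse 2 lay nearer these levels than mouse 1 at each time, so the difference is smaller without mouse 1. In untreated cells, whether any member passed between genotypes depended on which knockout mouse was left out.

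**Figure D5:**
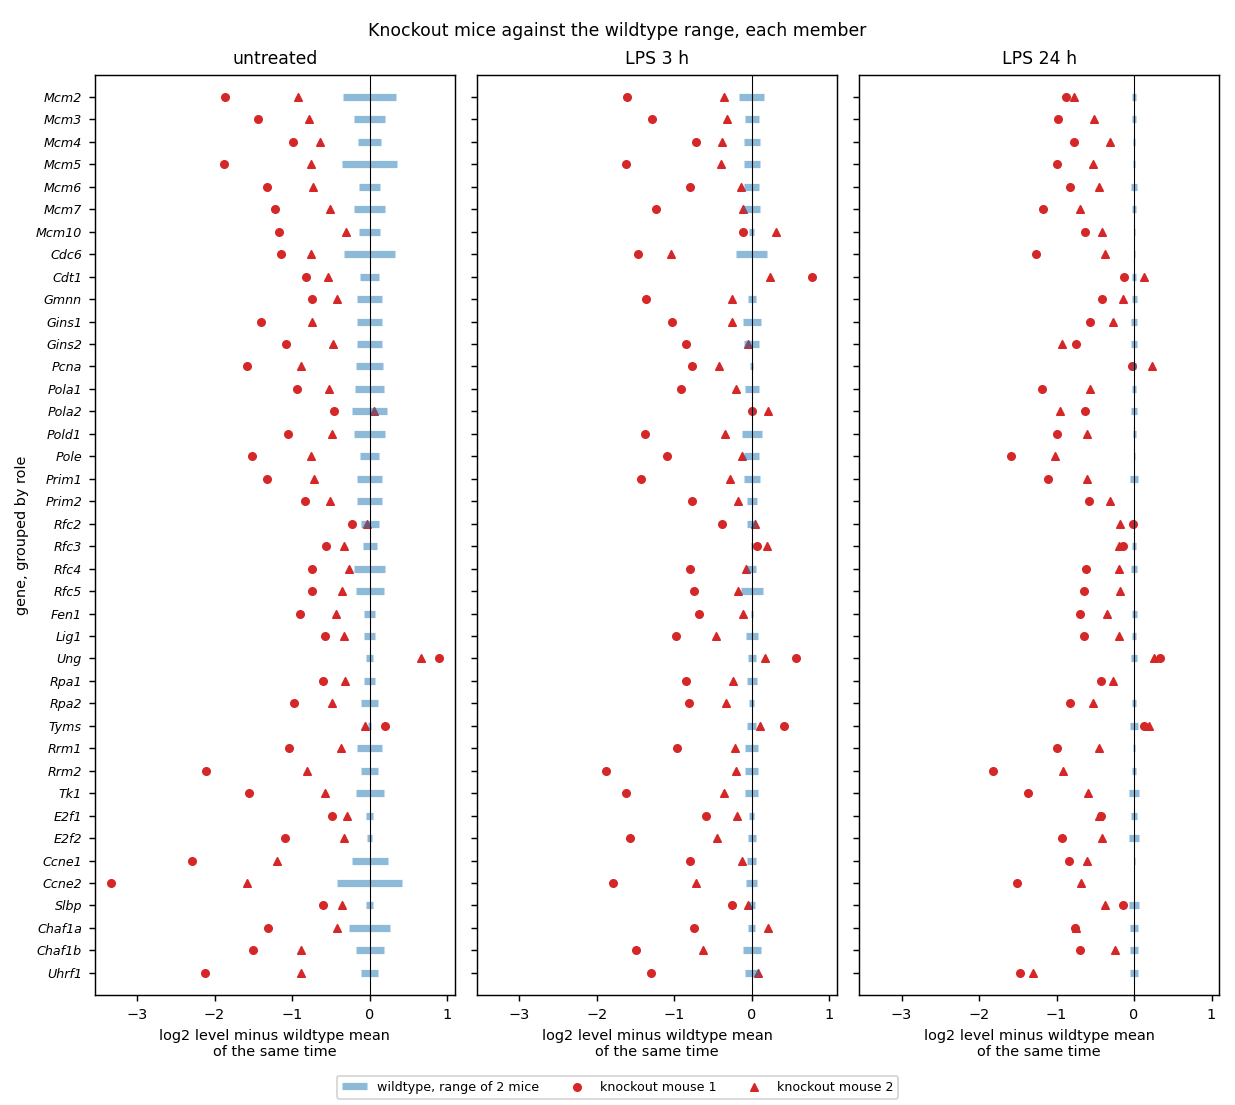
For each member, the log2 level of knockout mouse 1 (circles) and mouse 2 (triangles) minus the wildtype mean of the same time, with blue bars for the range of the 2 wildtype mice. Most circles lie left of the triangles, and both lie left of the bar for most members, with Ung to the right at all 3 times.

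Genes outside the list with neighbouring roles were counted from lists of their own. In wildtype cells 23.4% of all genes fell and 23.2% rose at 3 h, and 25.7% rose and 26.9% fell between 3 h and 24 h. Of 23 further origin, helicase and fork factors, 12 fell and 2 rose at 3 h in wildtype cells (median -0.67), with Clspn, the fork checkpoint mediator, at -1.95, Recql4 at -1.86 and Ticrr at -1.83, and against 3 h 15 rose and 1 fell by 24 h. The largest rise in this list at 24 h against untreated was Timeless, a fork protection factor, at 1.84 in wildtype and 2.42 in knockout cells. Of 17 further polymerase and clamp loader genes, 10 fell and 0 rose at 3 h (median -0.79), led by Dna2 (-2.98), Polk (-2.31) and Pole2 (-1.68). These lists moved in the direction of the members at 3 h.

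Of 14 checkpoint and repair genes, 9 fell and 0 rose at 3 h in wildtype cells (median -1.17), led by Chek2 (-2.30), Brca2 (-2.21) and Msh6 (-2.16), and 9 rose and 2 fell between 3 h and 24 h. Among 28 further E2F, pocket protein and G1/S genes tested of 29 listed, 11 fell and 7 rose at 3 h. Of all genes 23.4% fell and 23.2% rose, so the rising share was near that of all genes. The repressor E2f7 (-2.45), the ubiquitin ligase subunit Skp2 (-1.67) and the kinase inhibitor Cdkn2c (-1.24) fell, while cyclin Ccnd2 (4.69), the kinase inhibitor Cdkn1a (2.68) and Cdk6 (1.71) rose. In untreated knockout cells 4 of the 28 were called lower than in wildtype, Myc (-1.94), Ccnd1 (-1.71), E2f8 (-1.30) and Cdk6 (-0.85), and Rbl2 (0.42) was called higher. Of all genes 3.07% were called lower there and 3.76% higher.

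Nucleotide supply genes outside the list moved in both directions. Of 17 further deoxynucleotide genes, 3 rose and 3 fell at 3 h in wildtype cells, shares below those of all genes (23.2% and 23.4%): Cmpk2, a mitochondrial nucleotide kinase, rose by 7.87, Dck, deoxycytidine kinase, by 1.23, and Samhd1, which degrades deoxynucleotides, by 0.94, while Tk2 (-1.75), Dguok (-1.22) and Rrm2b (-0.65) fell. At 24 h Cmpk2 (7.34), Dck (1.99) and Samhd1 (1.88) were again called higher than in untreated cells. Of 22 genes of purine and pyrimidine base synthesis 10 fell and 2 rose at 24 h, where 26.4% of all genes fell and 23.6% rose. Prps2 was at -1.62, Pfas at -1.46, Prps1 at -1.41 and the folate enzyme Mthfd2 at 1.96.

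Since many members moved together, the 250 bases before each RefSeq start site were searched on both strands for the E2F motifs TTTCCCGC, TTTGGCGC, TTTCGCGC and TTTGCCGC. RefSeq sequence (GRCm38.p6) was held for 32 of the 40 members, and 7 of these (21.9%) had at least 1 match, against 2.16% of the 27025 genes in the table and 2.72% of the 17492 protein-coding ones. The 7 were Mcm5, Mcm6, Mcm7, Cdc6, Pola1, Rfc3 and Uhrf1. A match describes letters only, and overlapping matches on opposite strands can mark the same site. The matches of 6 are shown with flanks, 5′ to 3′ on the gene's strand with the match in capitals, and beside them the last 60 bases before the start of E2f2, the member with the deepest fall at 3 h, and of Tyms, which rose, neither with a match in its window:
Mcm5, chr8:75109336-75109387, plus strand: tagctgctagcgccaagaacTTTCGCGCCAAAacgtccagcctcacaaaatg
Mcm6, chr1:128359725-128359835, minus strand: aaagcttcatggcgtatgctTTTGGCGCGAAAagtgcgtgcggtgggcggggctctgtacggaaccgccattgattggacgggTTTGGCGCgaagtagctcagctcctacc
Mcm7, chr5:138172021-138172068, minus strand: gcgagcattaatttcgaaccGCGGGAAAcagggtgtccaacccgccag
Cdc6, chr11:98907993-98908040, plus strand: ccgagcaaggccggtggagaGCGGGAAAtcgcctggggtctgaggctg
Pola1, chrX:93632266-93632313, minus strand: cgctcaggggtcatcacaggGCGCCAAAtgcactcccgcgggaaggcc
Rfc3, chr5:151651209-151651238, minus strand: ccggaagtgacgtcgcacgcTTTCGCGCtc
E2f2, chr4:136172214-136172273, plus strand: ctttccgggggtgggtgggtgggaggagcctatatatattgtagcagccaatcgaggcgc
Tyms, chr5:30073626-30073685, minus strand: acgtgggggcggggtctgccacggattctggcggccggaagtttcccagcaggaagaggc

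In the Mcm5 and Mcm6 windows the capitals hold matches on both strands that share bases, and Mcm6 has a further match nearer its start. The shorter cores TTCCCGC and TTGGCGC occurred in 11 of the 32 (34.4%), against 6.45% of all genes, the CCAAT box in 18 (56.2%), against 37.5%, and the cell cycle element TTTGAA in 3 (9.38%), against 18.3%. The GC box GGGCGG occurred in 21 (65.6%), against 35.4% of all genes and 45.8% of the protein-coding ones. Of the mitotic genes with sequence, TTTGAA occurred in 7 of 17 (41.2%) and the E2F motifs in 1 (5.88%). Of the 7 members with an E2F match, Cdc6 and Uhrf1 fell at 3 h in wildtype cells and the other 5 did not pass the test.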

How the data were processed

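The authors' deposited scanner files give, per the file headers, a processed signal intensity for each spot, background-subtracted within the array, from Agilent Feature Extraction 10.7.3.1 (per the submitters' processing notes), with mm9 probe positions. The authors' deposited table of log2 values served as an alternative: its column medians ran from -4.50 to -4.30, and on each array at least 99.5% of detected probes matched the scanner value minus a constant within 0.01, so scale and direction are known and genes are not centred. Control and outlier spots were left out, spots of a probe averaged, and the array's 75th percentile of log2 signal subtracted. A probe was kept where it was detected in the 2 samples of some group. No spot was saturated; 60.1% to 73.0% of spots were well above background, and outlier spots numbered 589 on the 24 h array of knockout mouse 1 and 132 to 214 elsewhere. The number of arrays limits the precision. RefSeq accessions named 26412 of 39429 probes, symbols 3854 and synonyms 735, and 8428 kept the file's name.

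Group means were fitted to all 12 arrays in limma 3.58.1 (R 4.3.3), and each of 12 comparisons was tested two-sided with Benjamini-Hochberg adjustment. Replicate numbers pair samples because they name the mouse (residuals of a mouse's samples correlated across genes with r from 0.12 to 0.35). On simulated data for wildtype 24 h (22978 genes), 22%, 58%, 94% and 98% of changes of 0.5, 1, 2 and 3 on the log2 scale were recovered, with 7 false calls. Alternatives changed background correction, normalization, filter, block and samples. Values on every array are given for the 5 called members with the largest change in each direction of each LPS comparison and those called between genotypes, plus a few chosen after their values were seen. From the other lists, the 3 largest called changes in each direction were named, with exceptions chosen after their values were seen. The members and lists were chosen with earlier results of these data known.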

Additional observations from a re-analysis of the deposited data

How the results depend on the processing

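Of 98 calls of single members, 52 held under every alternative run and none changed direction. The count of members called moved by over 1.5 times as follows. For wildtype 24 h against untreated (6) it was 11 with normexp background correction, 10 with probes detected on all arrays, 15 with the mouse as a replicate block and 14 with only the groups compared. For wildtype 24 h against 3 h (21) it was 34 with the replicate block and 35 with only the groups compared. For knockout 3 h against untreated (12) the block gave 26 and only the groups compared 7, and for knockout 24 h against untreated (11) the block gave 21. For untreated knockout against wildtype (5) it was 18 with normexp, 9 with quantile normalization, 11 with probes detected on all arrays, 0 without a filter on dim probes, 8 in the deposited table, 8 with the mouse as a random block and 0 with only the groups compared. For the genotypes at 3 h (0) normexp gave 2 and probes detected on all arrays 1, which was also 1 at 24 h, and the genotype difference of the 24 h response (0) was 1 with normexp and with the block. The block changed no other count by over 1.5 times. The cause was not tested.

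Leaving out each sample in turn gave 9 to 17 members for wildtype 3 h against untreated, 4 to 6 for 24 h and 12 to 17 for 24 h against 3 h; in knockout cells 10 to 21, 9 to 14 and 13 to 29; between genotypes 0 to 10 untreated, 0 to 14 at 3 h, 0 at 24 h and 0 to 30 over mouse means; and 0 to 1 and 0 for the genotype differences of the 3 h and 24 h responses. The 9 and 10 were without untreated wildtype mouse 2 and without wildtype mouse 1 at 3 h, and without mouse 2 at 3 h it was 13. When the scaling percentile was taken over probes above background everywhere, the wildtype 3 h median went from 0.03 to -0.09 for all genes and from -0.70 to -0.82 for the members. Normexp moved the wildtype 24 h median of all genes from -0.04 to 0.18 and that of the members from 0.12 to 0.11. With 2 mice per genotype, differences of 0.5 on the log2 scale are mostly missed.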

Other observations

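Members with a pair of probes mostly gave like changes. At 3 h in wildtype cells Cdc6 changed by -3.19 and -3.69, Rfc4 by -1.03 and -0.96, Slbp by -1.26 and -1.13 and Uhrf1 by -1.90 and -1.17 on their 2 probes. They parted for Cdc6 at 24 h against untreated, at 0.51 on the chosen probe and -0.44 on the other in wildtype cells and 0.63 and -0.91 in knockout cells, so whether Cdc6 ended above or below its untreated level depends on the probe. For Rpa1, wildtype 24 h against 3 h gave 0.44 on the chosen probe and -0.26 on the other. Both probes of Ccne1 gave the lower level in untreated knockout cells, -1.75 and -1.70. The second probe of Pole was well above background on 0 arrays.

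In RefSeq's order of genes on GRCm38.p6 the neighbour of Tyms on one side is Il6, the interleukin gene, which was called higher in wildtype cells at 3 h (adjusted p = 6.56e-09) and at 24 h (adjusted p = 1.8e-07). Between 3 h and 24 h in wildtype cells Il6 fell by 7.45 on the log2 scale and Tyms changed by 0.06. The neighbour on the other side, 3110082J24Rik, had no tested value. Any relation between the changes of Il6 and Tyms was not tested.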
